A study of Mus musculus with 16 samples.

Results

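Double knockout hearts, in which cardiomyocytes were targeted at both Akt1 and Akt2, were compared with AKT2 KO hearts across all genes on the array, which asks what targeting Akt1 adds once Akt2 has already been targeted. The comparison rests on 8 of the 16 arrays of the study, chosen by sample title: 4 double knockout (DKO) and 4 AKT2 KO hearts. DKO mice carried 1 copy of a MerCreMer transgene and loxP-flanked alleles of Akt1 (exons 6 and 7) and Akt2 (exons 5 and 6), both homozygous. AKT2 KO mice carried the same transgene with homozygous floxed Akt2 only. The other groups, used here for a second look at the effect of targeting Akt1, were 4 AKT1 KO hearts (transgene and homozygous floxed Akt1) and 4 control hearts (transgene alone). All 16 mice were C57Bl/6 males that received 500 µg of hydroxytamoxifen per day in 5 injections at 3 months of age, and RNA was taken from the heart apex 21 days after induction. Recombinase and drug were therefore shared by every group. MerCreMer is a tamoxifen-activated Cre recombinase, expressed here from the alpha myosin heavy chain (αMHC) promoter, which is active in cardiomyocytes. Fibroblasts, endothelial cells and the other cells of the apex keep their Akt genes in this model. The labels name 1 mouse per array and give the mice of each group a shared number of its own, whose meaning they do not state.

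AKT kinases carry the signal of insulin and IGF1 receptors: PI3-kinase makes a membrane lipid that recruits AKT, and AKT then phosphorylates, among others, GSK3, the TSC complex upstream of mTORC1 and the FoxO transcription factors, which it keeps out of the nucleus. AKT1 and AKT2 are the main forms in the heart, where AKT1 is known for growth and survival and AKT2 for glucose uptake. FoxO factors freed from AKT raise insulin receptor and atrophy genes, and the heart muscle under stress is known to return to genes of fetal life such as natriuretic peptides while lowering fatty acid oxidation.

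The tissue label was checked against marker genes. Of the 12 cardiomyocyte markers all were above background in both groups, with a summed level (linear intensity relative to the 75th percentile of each array, added over members) of 2373 to 2931 on DKO arrays and 3098 to 3601 on AKT2 KO arrays. One DKO heart, replicate 3, lay away from its 3 group members. Its score on the first principal component was 78.6 against 42.5 to 47.8 for the other 3 DKO arrays, and its score on the second was 48.6 against -29.9 to -14.6. The median SD of a gene was accordingly higher among DKO arrays (0.248 log2 units) than among AKT2 KO arrays (0.114). Each group occupied 1 array column on both slides, so array column and group cannot be told apart. The 2 slides held 2 arrays of every group. In whole tissue, fewer cells of a type and less RNA per cell cannot be told apart, which applies to every result below.

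Promoter windows of 6 genes named in the results are shown with the motif matches found in them, to place the sequence beside the expression change described further on. The windows run from 250 bases before to 50 after the gene start (RefSeq, GRCm38.p6, given 5′ to 3′ on the strand of the gene). Sprr1a (chr3:92485832-92486131, minus strand), Nppb (chr4:147985650-147985949, plus strand), Ankrd1 (chr19:36119795-36120094, minus strand), Nupr1 (chr7:126625421-126625720, minus strand) and Gars (chr6:55037751-55038050, plus strand) were higher in DKO hearts. Sucla2 (chr14:73552536-73552835, plus strand) was lower. Capitals mark the AP-1 motif TGACTCA in Sprr1a, the TEAD motif GGAATG in Nppb and Ankrd1, the ATF4 composite motif TGATGNAA in Nupr1 and Gars, and the palindromic NRF1 motif in Sucla2. Matches were sought on both strands, so a match on the opposite strand appears as the reverse complement.
Sprr1a: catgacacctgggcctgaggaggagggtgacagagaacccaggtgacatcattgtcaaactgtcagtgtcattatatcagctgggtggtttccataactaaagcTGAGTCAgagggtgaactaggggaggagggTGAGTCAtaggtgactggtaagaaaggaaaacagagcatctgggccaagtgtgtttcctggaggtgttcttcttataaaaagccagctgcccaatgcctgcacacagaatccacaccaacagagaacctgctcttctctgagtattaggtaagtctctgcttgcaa
Nppb: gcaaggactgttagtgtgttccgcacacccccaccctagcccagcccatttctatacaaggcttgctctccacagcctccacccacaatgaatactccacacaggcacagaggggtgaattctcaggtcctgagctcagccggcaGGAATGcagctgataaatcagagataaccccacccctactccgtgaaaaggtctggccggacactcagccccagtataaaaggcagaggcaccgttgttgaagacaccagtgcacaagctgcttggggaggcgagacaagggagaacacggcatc
Ankrd1: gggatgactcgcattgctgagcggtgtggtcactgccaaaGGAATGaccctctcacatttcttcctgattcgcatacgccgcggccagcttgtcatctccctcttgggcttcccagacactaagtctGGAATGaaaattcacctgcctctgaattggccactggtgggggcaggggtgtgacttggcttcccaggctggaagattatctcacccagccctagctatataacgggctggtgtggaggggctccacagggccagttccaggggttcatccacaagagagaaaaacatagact
Nupr1: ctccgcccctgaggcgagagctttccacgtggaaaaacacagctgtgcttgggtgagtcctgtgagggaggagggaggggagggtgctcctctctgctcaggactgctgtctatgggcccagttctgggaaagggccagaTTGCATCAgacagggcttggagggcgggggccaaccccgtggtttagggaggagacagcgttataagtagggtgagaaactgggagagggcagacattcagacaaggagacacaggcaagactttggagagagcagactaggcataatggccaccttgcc
Gars: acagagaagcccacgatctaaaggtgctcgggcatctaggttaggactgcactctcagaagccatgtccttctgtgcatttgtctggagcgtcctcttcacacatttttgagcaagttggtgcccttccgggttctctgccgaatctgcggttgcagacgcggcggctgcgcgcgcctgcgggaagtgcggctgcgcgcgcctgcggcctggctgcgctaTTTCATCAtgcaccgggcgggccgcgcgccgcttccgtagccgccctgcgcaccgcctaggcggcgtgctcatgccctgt
Sucla2: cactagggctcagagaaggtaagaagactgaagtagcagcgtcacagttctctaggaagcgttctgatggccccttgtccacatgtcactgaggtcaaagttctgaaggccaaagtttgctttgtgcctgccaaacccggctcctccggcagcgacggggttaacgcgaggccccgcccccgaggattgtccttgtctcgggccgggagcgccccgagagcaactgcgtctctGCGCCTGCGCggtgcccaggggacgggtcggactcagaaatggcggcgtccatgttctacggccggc

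The 6 windows were picked because they held such a match. Over one window per gene, AP-1 matches were present in 5.17% of all 27025 windows and in 3.65% of those of the genes tested on these arrays, from which the called genes come. The share was 7.44% for genes called at least 2-fold higher in DKO hearts and 4.02% for those called at least 2-fold lower. In the same 4 sets (all windows, genes tested, higher and lower) TEAD matches were present in 14.6%, 12.4%, 15.2% and 15.3%, ATF4 composite matches in 4.06%, 2.4%, 4.53% and 1.76%, and NRF1 matches in 4.78%, 9.63%, 4.53% and 5.03%. No difference between these shares was tested. In the list of ATF4 and integrated stress response genes 7 of 23 windows held the ATF4 composite motif, and 6 of the genes with a match were called higher in DKO hearts, as were 13 of the 26 genes tested in that list. In the respiratory chain list 6 of 35 windows held the NRF1 motif, and all 6 of these genes were called lower, as were 43 of the 47 genes tested in that list. Of 1049 genes tested with an NRF1 match, 275 were called higher and 196 lower. The other motifs searched were FoxO (GTAAACA), antioxidant response (TGACNNNGC), the ERR site (AAGGTCA) and the CArG box. In the FoxO target list 3 of 25 windows held the FoxO motif, and 0 of these genes were called in either direction. The AP-1 motif was present in 0 of 23 windows of the immediate early list. The TEAD motif was present in 9 of 26 windows of the natriuretic and fetal list, of which 3 belonged to genes called higher and 2 to genes called lower, and overlapping matches of different motifs were not separated.

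The targeted genes come first. Akt2 was low in both groups that carry floxed Akt2: its most intense probe read 2.84, 2.82, 3.04 and 2.92 in DKO hearts, against 2.64, 2.43, 2.50 and 2.58 in AKT2 KO hearts, in log2 units relative to the 75th percentile of each array. AKT1 KO and control hearts read 4.51 to 4.98 with the same probe. Akt2 was higher in DKO than in AKT2 KO hearts by 0.37 ± 0.09 (limma, adjusted p = 0.00424), with no overlap between the groups. The other 2 Akt2 probes differed by 0.34 and -0.06, and with the mean of the probes the call was lost. Akt1 read 5.03, 5.07, 5.21 and 5.13 in DKO hearts, against 5.30, 5.19, 5.14 and 5.05 in AKT2 KO hearts. The groups overlapped and the difference was -0.06 ± 0.10 (adjusted p = 0.701). The position of the Akt1 probes relative to exons 6 and 7 is not given in the sources used here, so this value does not check the label.

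The response was broad. Of 13725 genes tested with limma, 5780 were called at an adjusted p under the threshold of 0.05 (42.1% of all genes), 3228 of them higher in DKO hearts (23.5%) and 2552 lower (18.6%). At least 2-fold changes were seen for 924 called genes, 409 higher and 515 lower, and at least 4-fold changes for 71 higher and 94 lower genes. All 4 DKO arrays lay on 1 side of all 4 AKT2 KO arrays for 5317 genes (38.7%). The median log2 difference over all genes was 0.024. Without DKO replicate 3 the count was 6514, 3727 higher and 2787 lower. Within the slide that held DKO replicates 1 and 2 it was 4966, and within the slide that held replicates 3 and 4 it was 1903. For the gene lists below, shares near those of all genes (42.1% called, 23.5% higher, 18.6% lower) do not set a list apart.

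The largest rises and falls named below were picked among called genes whose groups did not overlap. The absence of overlap in these genes is therefore part of the choice. Gdf15, a secreted stress hormone of the TGF-beta superfamily, had the largest rise. It read 3.62, 4.09, 5.71 and 4.81 in DKO hearts, against -1.33, -0.27, -1.52 and -1.36 in AKT2 KO hearts. Every DKO value lay above every AKT2 KO value, with a difference of 5.67 ± 0.36 log2 units, or 51.1-fold (adjusted p = 5.27e-08). Ccn2, a matricellular protein induced by TGF-beta and mechanical load, read 8.23, 8.13, 8.59 and 8.36 in DKO hearts, against 3.89, 3.62, 3.62 and 3.05 in AKT2 KO hearts. Its 27.6-fold rise was tight among DKO hearts, with an SD of 0.20 log2 units (adjusted p = 1.03e-09). Sprr1a, a small proline-rich protein known from stressed cardiomyocytes and injured neurons, read -0.63, -0.13, 1.93 and -0.45 in DKO hearts, against -4.95, -3.89, -4.63 and -4.20 in AKT2 KO hearts. DKO replicate 3 was the highest, and only 1 AKT2 KO array measured the gene above background (difference 4.60 ± 0.47, adjusted p = 4.22e-06). Its promoter, printed above, held 2 AP-1 matches.

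Gpx3, the secreted glutathione peroxidase, read 6.57, 6.22, 6.44 and 6.48 in DKO hearts, against 3.21, 3.25, 3.17 and 3.47 in AKT2 KO hearts. No values overlapped and the rise was 8.91-fold (adjusted p = 1.27e-10). Lgals3, the galectin that macrophages and stressed heart muscle make, rose 12.5-fold (adjusted p = 4.49e-09). Another 3 genes were not well above background on any AKT2 KO array. Plcxd2 rose at least 8.52-fold, Nrip3 at least 4.08-fold and Sepsecs, which makes selenocysteine on its tRNA, at least 7.45-fold (adjusted p = 7.82e-09, 9.27e-07 and 4.58e-06). For Sepsecs the difference was -0.27, below 0, without the filter on dim probes. These bounds set the dim group at the lowest signal that passed as well above background. Here and below, a gene given with such a bound could pass the filter through its brighter group alone. Its p-value rests on values below background and is no separate support. A gene above background on only some arrays of its dimmer group, such as Sprr1a above, could pass in the same way. Its difference and p-value rest in part on values below background and are no separate support either. Cxcr6, a chemokine receptor of lymphocytes, rose by 3.64 ± 0.48 (adjusted p = 4.25e-05) with 3 of 4 AKT2 KO arrays above background, and by 3.02 without DKO replicate 3. Rnase1, a secreted ribonuclease, rose by 3.29 ± 0.55 with 2 of 4 AKT2 KO arrays above background (adjusted p = 0.000253).

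**Figure D1:**
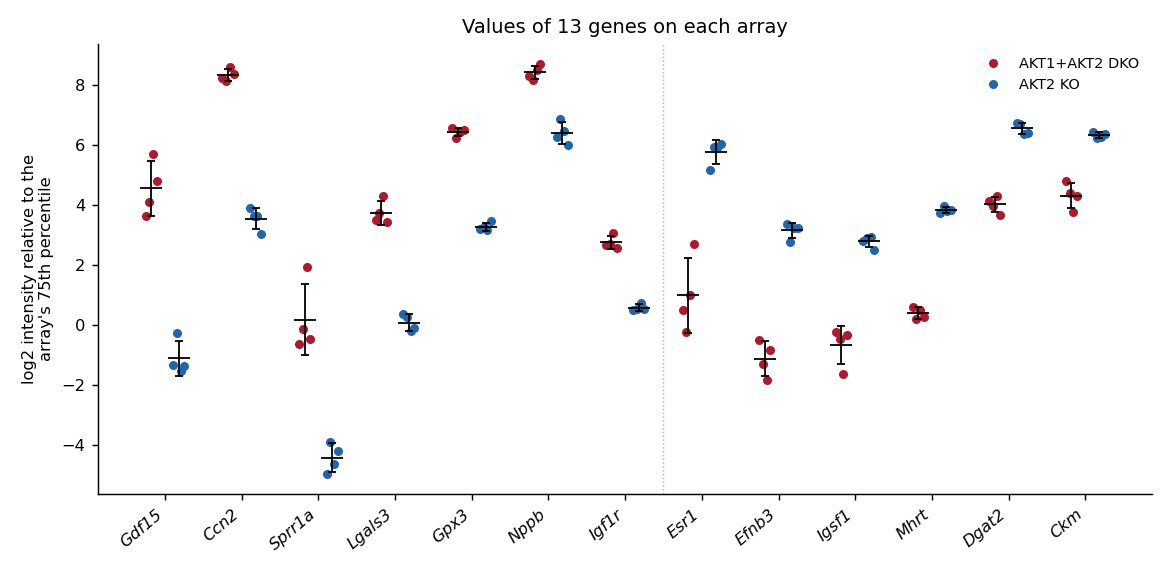
Values of 13 genes on each of the 4 DKO arrays (left of each pair) and 4 AKT2 KO arrays (right), in log2 units relative to the 75th percentile of the array, with the mean and SD in black. The 7 genes left of the dotted line lay higher in every DKO heart than in any AKT2 KO heart, and the 6 to its right lower. For the genes picked as largest rises or falls, this was required by the choice.

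Among the largest falls, Trim12a, a TRIM family protein, read -6.53, -6.40, -6.27 and -5.16 in DKO hearts, against 1.25, 1.52, 0.25 and 0.18 in AKT2 KO hearts. No DKO array measured it above background, so it was at least 30.6-fold lower in DKO hearts (adjusted p = 2.99e-09), and a second probe differed by -3.80. Esr1, estrogen receptor alpha, read 0.51, -0.24, 1.0 and 2.70 in DKO hearts, against 5.15, 5.94, 5.91 and 6.02 in AKT2 KO hearts. AKT1 KO hearts read 6.29, 6.12, 5.44 and 5.76 and control hearts 6.25, 6.41, 6.15 and 6.47, so DKO hearts were alone in their low values. The fall was 27.1-fold (adjusted p = 1.66e-06). The recombinase in all 4 groups is fused to mutated ligand-binding domains of the mouse estrogen receptor, and whether this probe reads the transgene was not tested.

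Efnb3, an ephrin ligand that guides cell contacts, read -0.49, -1.32, -1.83 and -0.84 in DKO hearts, against 3.35, 2.77, 3.24 and 3.23 in AKT2 KO hearts. The groups did not overlap and the fall was 19.3-fold (adjusted p = 1.9e-08). Mhrt, a long non-coding RNA transcribed antisense at the myosin heavy chain locus, read 0.61, 0.18, 0.51 and 0.28 in DKO hearts, against 3.74, 3.96, 3.79 and 3.82 in AKT2 KO hearts. Its fall was 10.8-fold (adjusted p = 4.22e-08), whereas Myh6, the adult alpha myosin heavy chain of the same locus, differed by -0.31 ± 0.12 (adjusted p = 0.043), a call that was lost in 17 of 32 alternatives. Among them were the omission of AKT2 KO replicate 1, 3 or 4 or of DKO replicate 1 or 2, which left differences of -0.33 to -0.25. A second, dimmer Myh6 probe fell by 1.61. Whether the Mhrt probe shares signal with either myosin heavy chain gene of the locus was not tested. Igsf1, an immunoglobulin superfamily protein best known from the pituitary, fell 11-fold (adjusted p = 7.36e-08). Klk1b26, a kallikrein, and the lens crystallin Crybb1 were not above background on any DKO array and were at least 5.23-fold and 3.45-fold lower (adjusted p = 3.02e-08 and 5.62e-08). Helt, a transcriptional repressor, Acsm5, a mitochondrial acyl-CoA synthetase, Mrgprh, an orphan receptor, and the crystallin Cryba4 also belonged to the largest falls. Helt and Cryba4, above background on 3 and 2 of 4 DKO arrays, differed by -3.58 ± 0.29 and -3.43 ± 0.16. Acsm5 and Mrgprh were below background on all DKO arrays, so they were lower by at least 2.56-fold (3 of 4 AKT2 KO arrays above background) and 2.92-fold.

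In the chain that leads to AKT, both receptors and several early steps were higher in DKO hearts. Of 30 members of the insulin, IGF1 and PI3-kinase list 10 were called higher and 5 lower, against 23.5% and 18.6% of all genes. Igf1r, the IGF1 receptor, read 2.68, 2.71, 3.07 and 2.58 in DKO hearts, against 0.50, 0.52, 0.75 and 0.52 in AKT2 KO hearts. The groups did not overlap and the rise was 4.55-fold (adjusted p = 7.62e-09). Insr, the insulin receptor, read 0.69, 0.83, 0.28 and 0.87 in DKO hearts, against -0.32, -0.35, -0.29 and -0.21 in AKT2 KO hearts, with DKO replicate 3 the lowest of the DKO values and still above AKT2 KO. It rose 1.94-fold (adjusted p = 1.47e-05). Pik3cb, a catalytic subunit of PI3-kinase, rose by 0.97 ± 0.08 and Igfbp4, which binds IGF1 outside cells, by 0.72 ± 0.07 (adjusted p = 3.37e-07 and 1.47e-06). Irs2, the adaptor between receptor and PI3-kinase, rose by 2.25 ± 0.41 (adjusted p = 0.000547) and is named here after its value was seen. The number called lower was 3 without AKT2 KO replicate 4.

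Direct AKT substrates and mTORC1 components were called in few cases. Among 20 members 3 were called higher and 1 lower (20%, against 42.1% of all genes). Gsk3a and Gsk3b, the glycogen synthase kinases that AKT inhibits, differed by -0.02 ± 0.08 and -0.02 ± 0.06 (adjusted p = 0.846 and 0.83). Eif4ebp1, the translation repressor that mTORC1 inactivates, read 6.20, 6.31, 6.69 and 6.28 in DKO hearts, against 4.85, 4.72, 4.74 and 4.67 in AKT2 KO hearts. All DKO values were higher, 3.09-fold in the mean (adjusted p = 2.47e-06). Pfkfb2, the heart form of the enzyme that makes the activator of phosphofructokinase, read 1.60, 1.20, -0.81 and 1.34 in DKO hearts, against 2.43, 2.59, 2.36 and 2.36 in AKT2 KO hearts. It fell by 1.60 ± 0.36 log2 units (adjusted p = 0.00275), with DKO replicate 3 far below the other 3 DKO hearts.

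FoxO targets were higher more often than lower, with 11 of 28 called higher and 1 lower. In either direction 42.9% were called, against 42.1% of all genes. Without DKO replicate 3 the counts were 12 and 4. Gabarapl1 and Bnip3, which act in the making of autophagosomes and in the removal of mitochondria, rose 2.41-fold and 2.36-fold (adjusted p = 2.84e-07 and 1.55e-06). Gabarapl1 read 7.21, 7.09, 6.84 and 7.16 in DKO hearts, against 5.68, 5.83, 5.76 and 5.96 in AKT2 KO hearts. The muscle atrophy ligases were not called. Fbxo32 (atrogin-1) read 3.58, 3.40, 2.07 and 3.05 in DKO hearts, against 2.95, 3.04, 3.1 and 3.05 in AKT2 KO hearts. Replicate 3 was the lowest DKO heart and the difference was -0.01 ± 0.23 (adjusted p = 0.976), but 0.31 and past the threshold without that array. Trim63 (MuRF1) differed by 0.21 ± 0.13 (adjusted p = 0.22). Sod2, the mitochondrial superoxide dismutase and also a FoxO target, fell by 1.12 ± 0.15 log2 units (adjusted p = 5.61e-05).

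Genes of the natriuretic and fetal programme were called higher for 13 of 30 members and lower for 6. The number called lower was 1 without AKT2 KO replicate 3 and 3 without DKO replicate 1 or 2. Nppa, atrial natriuretic peptide, read 9.15, 9.09, 9.41 and 9.45 in DKO hearts, against 6.57, 7.58, 7.81 and 6.36 in AKT2 KO hearts. Both groups were high, AKT2 KO hearts varied more, and no values overlapped (4.59-fold, adjusted p = 2.18e-05; 3.54 log2 units with a second probe). Nppb, B-type natriuretic peptide, read 8.31, 8.17, 8.51 and 8.68 in DKO hearts, against 6.27, 6.86, 6.45 and 6.01 in AKT2 KO hearts. It rose 4.06-fold (adjusted p = 6.63e-07), and a second Nppb probe differed by 2.82. Ankrd1, a titin-associated ankyrin repeat protein, read 8.28, 8.27, 8.31 and 8.49 in DKO hearts, against 5.97, 6.59, 6.50 and 6.42 in AKT2 KO hearts. The DKO values had an SD of 0.11 log2 units and lay 3.9-fold above AKT2 KO in the mean (adjusted p = 8.45e-08). Rcan1, an inhibitor of calcineurin that calcineurin itself induces, rose by 1.97 ± 0.14 and Tgfb2 by 2.60 ± 0.17 (adjusted p = 1.08e-07 and 7.13e-08). Myh7, the beta myosin heavy chain of the fetal heart, rose by 2.32 ± 0.39 (adjusted p = 0.000309), and is named after its value was seen. Acta1, the skeletal actin that is also a fetal heart gene, differed by -0.78 ± 0.50 (adjusted p = 0.23).

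Matrix genes were raised together. In the list of CCN proteins, TGF-beta ligands and matricellular proteins 17 of 26 were called higher and 0 lower, with a median log2 difference of 0.65 against 0.024 over all genes. In the list of collagens and matrix enzymes 29 of 39 were called higher and 0 lower, with a median of 0.77. Tgfb3 rose by 0.85 ± 0.07 and the thrombospondin Thbs4 by 1.60 ± 0.17 (adjusted p = 3.11e-07 and 7.03e-06). Ccn1, a second CCN protein, rose by 1.20 ± 0.37 (adjusted p = 0.0174), a call that was lost without AKT2 KO replicate 3 (1.10). Col1a1, the main fibrillar collagen chain, read 3.45, 3.65, 4.46 and 3.25 in DKO hearts, against 2.70, 2.53, 2.37 and 2.31 in AKT2 KO hearts. DKO replicate 3 was the highest and the rise was 2.34-fold (adjusted p = 0.000189). Col3a1 and Col1a2 rose by 1.19 ± 0.19 and 1.05 ± 0.16, and Col6a3, of the collagen that lines muscle fibres, by 0.76 ± 0.11. Timp1, a protease inhibitor, and Postn, a matricellular protein of activated fibroblasts, rose by 2.61 ± 0.48 and 2.00 ± 0.51 (adjusted p = 0.000561 and 0.00554; both named after their values were seen). Fibroblast markers moved with these lists: 9 of 14 were called higher and 1 lower, and their summed level was 749 to 852 on DKO arrays, against 652 to 716 on AKT2 KO arrays. Pdgfra, the receptor that marks fibroblasts, rose by 0.71 ± 0.10 (adjusted p = 7.62e-05) and Tcf21 differed by 0.37 ± 0.15 (adjusted p = 0.068). Collagens and fibroblast markers share members, and the part of cell composition in these differences was not tested.

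The contractile apparatus showed changes in both directions. Of 34 sarcomere and Z-disc genes 12 were called higher and 9 lower. Mybpc3 and Myl2, a myosin binding protein and a myosin light chain of the thick filament, differed by -0.06 ± 0.12 and -0.20 ± 0.12 (adjusted p = 0.699 and 0.196). Fhl1, a LIM protein that senses strain at titin, read 6.19, 6.62, 7.90 and 6.54 in DKO hearts, against 4.06, 3.95, 4.04 and 4.19 in AKT2 KO hearts, a 6.73-fold rise with replicate 3 the highest (adjusted p = 1.46e-06). Its relative Fhl2 fell by 1.17 ± 0.11 log2 units (adjusted p = 2.07e-06), so the 2 paralogs moved in opposite directions. Des, the intermediate filament desmin, and Synpo2l, a Z-disc protein, rose by 1.27 ± 0.15 and 0.82 ± 0.11 (adjusted p = 1.87e-05 and 6.03e-05), with 2.82 for a second Synpo2l probe. Of Ttn, titin, the most intense probe fell by 0.34 ± 0.10 (adjusted p = 0.0168) and others differed by -0.42 and 0.02. The call was lost without AKT2 KO replicate 2 (-0.30).

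Calcium handling and excitation genes were lower more often than higher. In the calcium cycling list 4 of 30 were called higher and 11 lower (50%, against 42.1% of all genes). Without DKO replicate 3 the counts were 8 and 12, and without AKT2 KO replicate 4 they were 2 and 10. Hrc, a calcium-binding protein of the sarcoplasmic reticulum, read 6.33, 6.07, 5.20 and 6.22 in DKO hearts, against 7.82, 7.65, 7.81 and 7.91 in AKT2 KO hearts, 3.58-fold lower and lowest in replicate 3 (adjusted p = 3.3e-06). Trdn, triadin, Ryr2, the calcium release channel, and Casq2, calsequestrin, fell by 0.91 ± 0.08, 0.75 ± 0.10 and 0.68 ± 0.10 log2 units (adjusted p = 1.02e-06, 2.89e-05 and 0.00015). Atp2a2, the calcium pump SERCA2, and Pln, its inhibitor phospholamban, fell by 0.49 ± 0.10 and 0.82 ± 0.17 (adjusted p = 0.00144 and 0.00164), and 2 further Atp2a2 probes differed by -0.66 and -0.10. Among 28 ion channel genes 3 were called higher and 15 lower, with a median difference of -0.63. The 3 higher became 6 without DKO replicate 3 and 1 without AKT2 KO replicate 3. Scn4b, a sodium channel subunit, read 0.76, 0.86, -0.52 and -0.29 in DKO hearts, against 2.48, 2.97, 2.67 and 2.82 in AKT2 KO hearts, 5.77-fold lower (adjusted p = 6.24e-06). Potassium channel genes Kcnj5, Kcnh2 and Kcnj2 fell by 1.15 ± 0.09, 1.35 ± 0.14 and 1.53 ± 0.38 (adjusted p = 2.26e-07, 3.54e-06 and 0.00511). For Kcnj2, which sets the resting potential, DKO replicate 3 read -0.47 and the other DKO hearts 1.30 to 1.97.

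**Figure D2:**
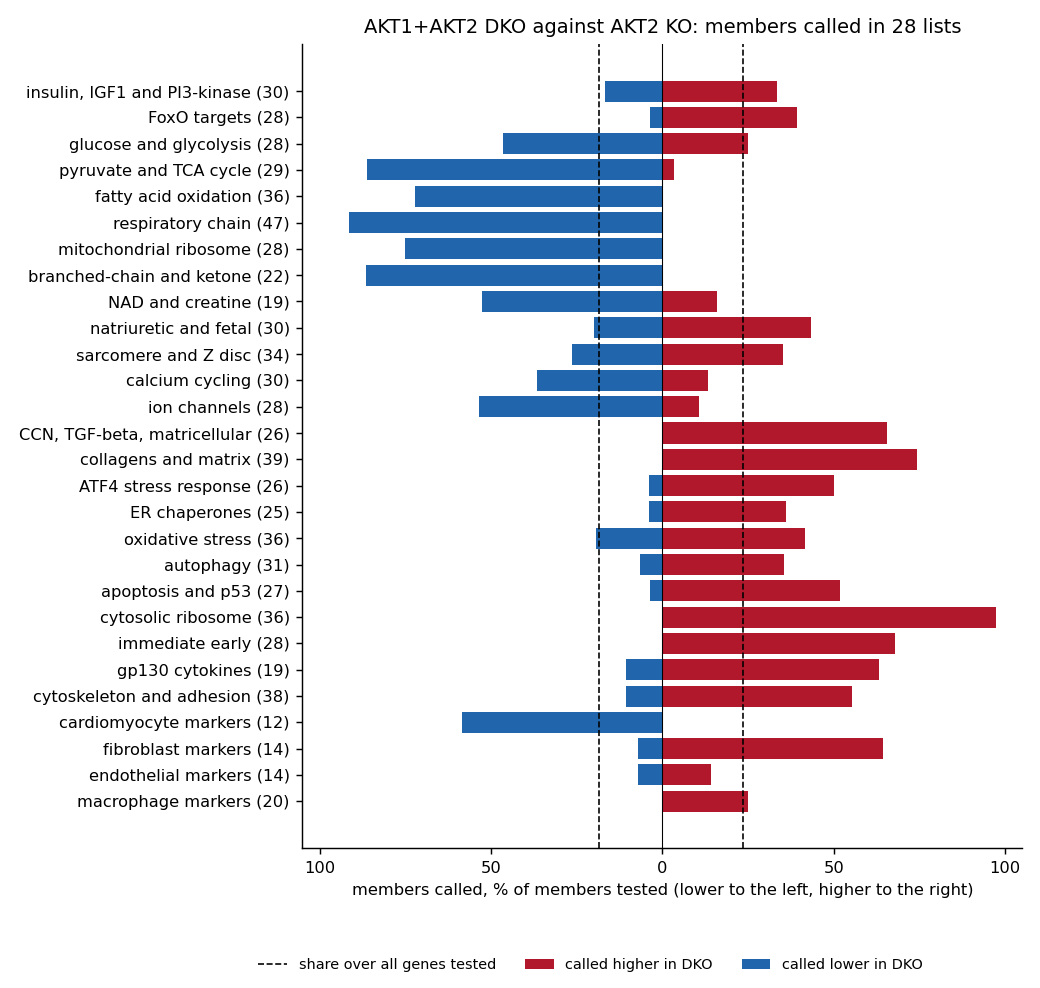
Share of tested members called higher (right) and lower (left) in DKO than in AKT2 KO hearts for 28 gene lists, with the number of members tested in brackets. Dashed lines give the share over all 13725 genes, 23.5% higher and 18.6% lower. The energy metabolism lists extend to the left, and the cytosolic ribosome, matrix and immediate early lists to the right.

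The mitochondrial energy genes were lower almost throughout. Of 36 genes of fatty acid uptake, storage and oxidation (the fatty acid oxidation list) 26 were called lower and 0 higher, with a median log2 difference of -0.87. Dgat2, which makes triglyceride, read 4.14, 3.96, 4.28 and 3.68 in DKO hearts, against 6.73, 6.71, 6.36 and 6.39 in AKT2 KO hearts, 5.79-fold lower (adjusted p = 1.9e-08). Cpt2, which restores acyl-CoA inside mitochondria, read 4.08, 4.17, 4.51 and 3.86 in DKO hearts, against 6.11, 5.89, 5.97 and 6.12 in AKT2 KO hearts. It was 3.65-fold lower without overlap (adjusted p = 1.45e-07), and its partner Cpt1b, the rate-limiting entry step, fell by 0.71 ± 0.10 log2 units (adjusted p = 5.62e-05). The dehydrogenases Hadh and Acads fell by 1.45 ± 0.10 and 1.45 ± 0.11 (adjusted p = 1.57e-07 and 2.95e-07).

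In the list of pyruvate oxidation and the TCA cycle 25 of 29 were called lower and 1 higher, with a median of -0.54. Sucla2, a subunit of succinyl-CoA synthetase whose promoter with an NRF1 match was printed above, fell by 1.34 ± 0.12 (adjusted p = 9.59e-07). Mpc2, a subunit of the mitochondrial pyruvate carrier, and Cs, citrate synthase, fell by 0.93 ± 0.09 and 0.66 ± 0.07 (adjusted p = 3.8e-06 and 6.76e-06). In the respiratory chain list 43 of 47 were called lower and 0 higher, with a median of -0.44. Complex I subunits Ndufa9, Ndufs1 and Ndufs8 fell by 0.91 ± 0.09, 0.82 ± 0.09 and 0.90 ± 0.10 (adjusted p = 2.18e-06, 5.24e-06 and 6.58e-06). Mitochondrial ribosomal proteins were called lower for 21 of 28 and higher for 0, with a median of -0.43, led by Mrpl28 with a fall of 1.13 ± 0.11 (adjusted p = 1.78e-06). Within the slide of DKO replicates 3 and 4 alone, 17 fatty acid oxidation, 10 pyruvate and TCA, 15 respiratory chain and 5 mitochondrial ribosome genes were called lower and 0 higher. At an unadjusted p under 0.05, over all arrays, 0 of the fatty acid oxidation, 0 of the respiratory chain and 0 of the mitochondrial ribosome genes were higher.

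Catabolism of branched-chain amino acids and ketones was lower for 19 of 22 genes and higher for 0, with a median of -0.70. Bckdha, of the rate-limiting branched-chain ketoacid dehydrogenase, fell by 1.19 ± 0.16 and Acat1, of ketone use, by 0.88 ± 0.10 (adjusted p = 3.75e-05 and 9.18e-06). Creatine kinases carry energy from mitochondria to myofibrils. Ckm, the muscle form, read 4.78, 4.38, 3.77 and 4.31 in DKO hearts, against 6.43, 6.25, 6.25 and 6.36 in AKT2 KO hearts, and Ckmt2, the mitochondrial form, fell by 1.26 ± 0.09 (adjusted p = 1.39e-06 and 2.15e-07). Ckm was 4.04-fold lower, lowest in replicate 3. Nmrk2, a kinase that makes NAD from nicotinamide riboside, moved the other way and read 4.76, 5.71, 3.43 and 5.10 in DKO hearts, against 1.52, 1.06, 1.89 and 2.44 in AKT2 KO hearts. It rose 8.13-fold (adjusted p = 6.72e-05), with replicate 3 the lowest DKO value. Nampt, which makes NAD from nicotinamide, fell by 0.73 ± 0.20 (adjusted p = 0.00906).

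Regulators of mitochondrial genes were lower for 9 of 22 and higher for 1. Ppara and Ppargc1a (PGC-1alpha) differed by -0.24 ± 0.11 and -0.36 ± 0.17 without passing the threshold (adjusted p = 0.086 and 0.114), and both passed it without DKO replicate 4 (-0.33 and -0.48). Ppargc1b, Tfam, which maintains mitochondrial DNA, and Mef2a fell by 0.94 ± 0.18, 0.48 ± 0.08 and 0.43 ± 0.07 (adjusted p = 0.000952, 0.000381 and 0.000303). For Nrf1 the most intense probe rose by 0.47 ± 0.08 and the other 2 differed by 0.34 and -0.04.

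**Figure D3:**
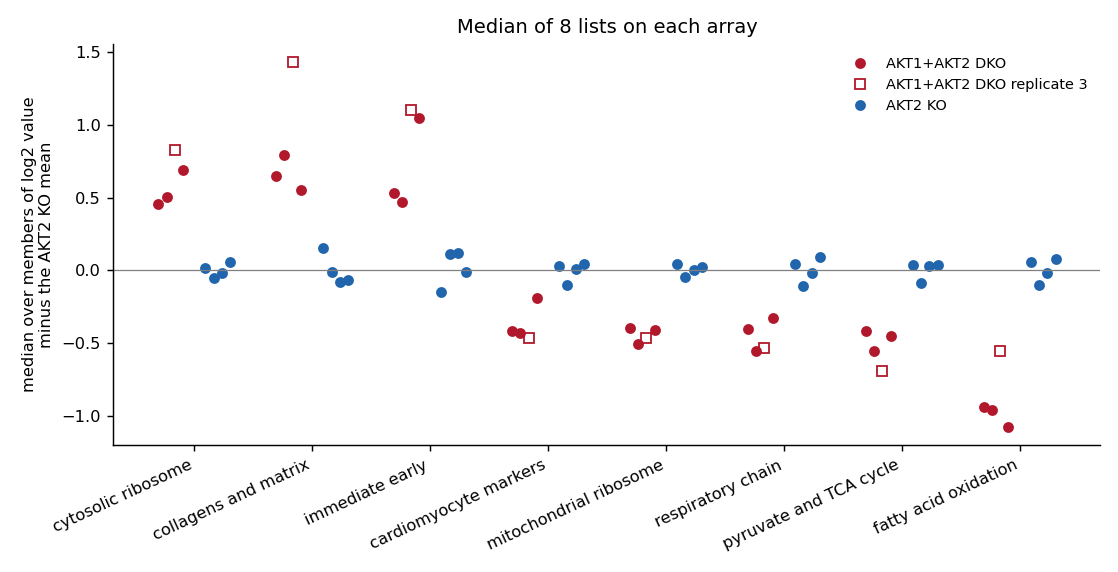
Median over the members of 8 gene lists on each array, as log2 value minus the mean of the AKT2 KO arrays, with DKO arrays left of AKT2 KO arrays and DKO replicate 3 as an open square. DKO medians of the collagen list lie between 0.55 and 1.43 and those of the fatty acid oxidation list between -1.07 and -0.55, outside the AKT2 KO arrays in both.

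Glucose metabolism was divided. Of 28 genes 7 were called higher and 13 lower. Slc2a1, the basal glucose transporter GLUT1, read 2.87, 2.93, 2.67 and 2.92 in DKO hearts, against 1.01, 1.13, 1.15 and 1.17 in AKT2 KO hearts, and Slc2a4, the insulin-responsive transporter GLUT4, fell by 0.85 ± 0.25 (adjusted p = 0.0134). Slc2a1 rose 3.33-fold (adjusted p = 5.38e-08). Pfkfb1 and Pfkm, which control and carry out the phosphofructokinase step, fell by 2.62 ± 0.21 and 1.24 ± 0.17, and the lactate dehydrogenase Ldhb by 0.74 ± 0.11 (adjusted p = 4.37e-07, 4.77e-05 and 8.86e-05). Among 26 genes of sterol and fatty acid synthesis 9 were called higher and 3 lower (46.2%, against 42.1% of all genes). Their master regulators Srebf1 and Srebf2 differed by -0.09 ± 0.10 and 0.14 ± 0.13 (adjusted p = 0.48 and 0.396). Scd1, the fatty acid desaturase, rose by 1.67 ± 0.11 and Sqle, squalene epoxidase, by 0.70 ± 0.14 (adjusted p = 7.31e-08 and 0.00146).

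Stress responses were raised in part. Of 26 ATF4 and integrated stress genes 13 were called higher and 1 lower, with a median of 0.47. Atf4 itself rose by 0.81 ± 0.16 and the amino acid transporter gene Slc38a2 by 2.07 ± 0.25 (adjusted p = 0.000829 and 2.15e-05). Nupr1, a stress-induced chromatin protein, and Gars, glycyl-tRNA synthetase, whose promoters held an ATF4 composite match, rose by 1.05 ± 0.16 and 0.58 ± 0.09 (adjusted p = 0.0001 and 0.000145). Ddit3 (CHOP) differed by -0.37 ± 0.15 (adjusted p = 0.0587), and by -0.55 and past the threshold without DKO replicate 4. In the list of endoplasmic reticulum chaperones 9 of 25 were called higher and 1 lower (40%, against 42.1% of all genes). Without DKO replicate 3 these were 16 and 1. Xbp1, a transcription factor of the unfolded protein response, and P4hb, a disulfide isomerase, rose by 0.99 ± 0.09 and 1.08 ± 0.09 (adjusted p = 1.11e-06 and 9.42e-07). Hspa5 (BiP), the main chaperone, differed by 0.32 ± 0.18 (adjusted p = 0.178), and by 0.57 and past the threshold without DKO replicate 3. Derl3, of the degradation pathway, was below background on all AKT2 KO arrays and rose at least 5.79-fold (adjusted p = 0.000183).

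Of 36 oxidative stress genes 15 were called higher and 7 lower. Nqo1, a classic NRF2 target, rose by 0.62 ± 0.13 and the glutathione transferase Gstm1 by 0.86 ± 0.11, whereas Gsta4 fell by 0.89 ± 0.11 (adjusted p = 0.00178, 3.05e-05 and 1.89e-05). Hmox1, heme oxygenase, read 0.93, 1.32, 4.66 and 0.96 in DKO hearts, against 0.51, 0.19, 0.02 and 0.41 in AKT2 KO hearts. Replicate 3 was far above the other DKO hearts, and the difference of 1.69 ± 0.59 (adjusted p = 0.033) was 0.79 without it. Its call was lost without AKT2 KO replicate 2, 3 or 4 (1.60 to 1.73). The median of this list was 0.35 with and 0.16 without that heart. Heat shock genes were called higher for 7 and lower for 5 of 21, with Hspb1 and Hsp90aa1, both cytosolic chaperones, rising by 1.04 ± 0.12 and 1.04 ± 0.11 and the mitochondrial chaperone Hspd1 falling by 0.56 ± 0.08 (adjusted p = 1.08e-05, 3.91e-06 and 5.4e-05). Autophagy genes were called higher for 11 and lower for 2 of 31 (41.9%, against 42.1% of all genes). Without DKO replicate 3 these counts were 13 and 5. Sqstm1 (p62) and Gabarap rose by 0.79 ± 0.11 and 0.69 ± 0.08, and Opa1, which fuses mitochondrial inner membranes, fell by 0.81 ± 0.11 (adjusted p = 5.77e-05, 1.47e-05 and 4.29e-05). In the apoptosis and p53 list 14 of 27 were called higher and 1 lower. Bax, which permeabilises mitochondria, and Tnfrsf12a, the receptor of TWEAK, rose by 0.64 ± 0.09 and 2.11 ± 0.19, while Ccng1, a p53 target, fell by 1.26 ± 0.12 (adjusted p = 4.84e-05, 1.14e-06 and 2.79e-06). Cdkn1a (p21), named after its value was seen, rose by 2.16 ± 0.41 (adjusted p = 0.000699), and Trp53 differed by -0.10 ± 0.15 (adjusted p = 0.611).

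Cytosolic ribosomal proteins stood opposite to mitochondrial ones. Of 36 genes 35 were called higher and 0 lower, with a median of 0.64, and within the slide of DKO replicates 3 and 4 alone 29 were called higher. Rpl3 read 6.92, 6.96, 7.47 and 7.10 in DKO hearts, against 5.71, 5.55, 5.60 and 5.61 in AKT2 KO hearts, and its 2.82-fold rise was the largest of the list (adjusted p = 3.66e-06). Rps6, Rpl10 and Rpl30 rose by 0.64 ± 0.08, 0.78 ± 0.07 and 0.65 ± 0.07 (adjusted p = 2.46e-05, 1.95e-06 and 3.53e-06). Ribosomal protein genes have many near-identical pseudogenes, and the probes could read several copies.

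Immediate early genes were called higher for 19 of 28 and lower for 0, with a median of 0.76. Myc, a growth-promoting transcription factor, read -1.0, -0.60, 0.85 and 0.04 in DKO hearts, against -2.37, -3.26, -2.57 and -2.66 in AKT2 KO hearts, 5.81-fold higher and highest in replicate 3 (adjusted p = 9.82e-05). Maff, Mafk and Junb, subunits of AP-1-like factors, rose by 2.37 ± 0.22, 1.71 ± 0.17 and 1.40 ± 0.13 (adjusted p = 1.54e-06, 3.97e-06 and 1.66e-06). Fos varied within AKT2 KO hearts (SD 1.27) and differed by 0.73 ± 0.49 (adjusted p = 0.249). In the list of gp130 cytokine genes 12 of 19 were called higher and 2 lower, and without AKT2 KO replicate 3 these were 7 and 1. The shared receptor Il6st (gp130) rose by 0.65 ± 0.09 and the oncostatin receptor Osmr by 1.10 ± 0.25, and the ligand Ctf1, cardiotrophin, fell by 1.41 ± 0.22 (adjusted p = 7.04e-05, 0.00251 and 0.000192). Chemokine and interferon genes were called higher for 8 and lower for 2 of 32 (31.25%, against 42.1% of all genes). Without AKT2 KO replicate 4 these counts were 5 and 1. Ifit2, an interferon-induced protein, rose by 1.76 ± 0.16 (adjusted p = 1.64e-06), and the chemokine Ccl2 differed by 1.01 ± 0.41 (adjusted p = 0.0585), and passed the threshold without DKO replicate 1 or 2 (1.31 and 1.25).

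Angiogenic genes were called lower for 9 of 25 and higher for 3 (48%, against 42.1% of all genes). The number higher was 1 after the omission of any AKT2 KO array, AKT1 KO replicate 3 or 4 or control replicate 1, 2 or 3. Apln, the peptide apelin, and Fgf16, a heart growth factor above background on 3 DKO arrays, fell by 1.62 ± 0.12 and 1.81 ± 0.19 (adjusted p = 2.02e-07 and 5.87e-06). Vegfa, the main vessel growth factor, differed by -0.53 ± 0.23 (adjusted p = 0.0802), and by -0.67 and past the threshold without DKO replicate 2. Among 38 cytoskeleton and adhesion genes 21 were called higher and 4 lower. Krt18, a keratin of epithelia, read 1.65, 1.26, 2.23 and 1.06 in DKO hearts, against -2.28, -1.26, -1.03 and -1.78 in AKT2 KO hearts, 8.78-fold higher without overlap (adjusted p = 7.37e-07), and the tubulin Tubb2a rose by 1.07 ± 0.11 (adjusted p = 4.33e-06). Amino acid carriers were called higher for 6 and lower for 3 of 15. Slc38a4 rose by 1.36 ± 0.16, and Slc38a3 and Slc36a2 fell by 1.39 ± 0.08 and 2.64 ± 0.26 (adjusted p = 1.5e-05, 4.11e-08 and 2.47e-06). Clock genes were called higher for 2 and lower for 5 of 18 (38.9%, against 42.1% of all genes). Without AKT2 KO replicate 2 or DKO replicate 1 there were 3 lower, and without AKT2 KO replicate 4 or DKO replicate 2 there were 2. Rora rose by 0.52 ± 0.06, Hlf fell by 1.03 ± 0.19 and Arntl (BMAL1), the core activator, differed by 0.30 ± 0.24 (adjusted p = 1.37e-05, 0.000601 and 0.339; 0.58 and past the threshold without DKO replicate 4). Cell cycle genes were called higher for 4 and lower for 2 of 21 (28.6%, against 42.1% of all genes). The number lower was 4 without DKO replicate 3 and 1 without AKT2 KO replicate 1. The replication factors Mcm6 and Mcm2 moved in opposite directions, by 0.77 ± 0.15 and -0.79 ± 0.12, and the proliferation marker Mki67 differed by -0.22 ± 0.34 (adjusted p = 0.00105, 0.00016 and 0.635).

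Markers of the cell types in the apex differed in how they moved. Cardiomyocyte markers were called lower for 7 of 12 and higher for 0, with Tnni3 (cardiac troponin I) and Mb (myoglobin) falling by 0.56 ± 0.11 and 0.61 ± 0.12 (adjusted p = 0.000799 and 0.000952), and Mybpc3, Tnnt2 and Nkx2-5 differing by -0.06 ± 0.12, -0.22 ± 0.11 and 0.10 ± 0.13 without passing the threshold. Endothelial markers were called higher for 2 and lower for 1 of 14 (21.4%, against 42.1% of all genes). Their summed level was 284 to 334 on DKO arrays, against 261 to 295 on AKT2 KO arrays. Without AKT2 KO replicate 2 or 3 the counts were 1 and 0, and without AKT2 KO replicate 4 they were 2 and 0. The defining genes Pecam1 and Cdh5 differed by 0.16 ± 0.10 and -0.02 ± 0.10 (adjusted p = 0.213 and 0.894). Macrophage markers were called higher for 5 and lower for 0 of 20 (25% higher, against 23.5% of all genes). Their summed level was 93.5 to 133 on DKO arrays, against 93.7 to 116 on AKT2 KO arrays. The number called higher was 2 without AKT2 KO replicate 3, 3 without AKT2 KO replicate 4 or DKO replicate 2, 9 without DKO replicate 4 and 10 without AKT2 KO replicate 1. Cd68 and Adgre1 differed by 0.57 ± 0.25 and 0.40 ± 0.23 (adjusted p = 0.0764 and 0.174). A second, dimmer Cd68 probe differed by 0.93 (adjusted p = 0.0113). With the first probe Cd68 passed the threshold without AKT2 KO replicate 1 or DKO replicate 4 (0.73 and 0.72) and Adgre1 without DKO replicate 3 (0.64). Gpnmb, a glycoprotein of activated macrophages, read -1.39, -1.68, -1.14 and -1.40 in DKO hearts, against -4.59, -4.32, -3.86 and -3.16 in AKT2 KO hearts (2.58 ± 0.25, adjusted p = 2.61e-06; 2 of 4 AKT2 KO arrays above background). Smooth muscle and pericyte markers were called higher for 3 and lower for 3 of 12 (50%, against 42.1% of all genes). They were called higher for 7 and lower for 1 without DKO replicate 3. The number lower was 1 without AKT2 KO replicate 1 or 4 and 0 without AKT2 KO replicate 3. Acta2 (smooth muscle actin) fell by 0.42 ± 0.13 with its most intense probe (adjusted p = 0.0151), a call lost without AKT2 KO replicate 3 (-0.36), and rose by 1.56 and 1.11 with the other 2. By limma 0 of 10 neutrophil and lymphocyte markers and 0 of 9 mesothelial, Schwann and red cell markers were called, and 1 and 1 passed an unadjusted threshold of 0.05. Their summed levels were 46.2 to 61.9 and 519 to 1035 on DKO arrays, against 65.6 to 96.2 and 679 to 1006 on AKT2 KO arrays. Adipocyte markers were low (19.8 to 30.8 on DKO arrays, against 19.1 to 26.1 on AKT2 KO arrays), with 3 of 7 called higher and 1 lower. Atrial and ventricular markers were called higher for 4 and lower for 3 of 11, and the atrial light chain Myl7 differed by -0.10 ± 0.72 with an SD of 1.93 among DKO hearts, 3 of which measured it above background (adjusted p = 0.92).

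Genes beside the targeted loci were looked at because floxed alleles bring neighbouring genome with them. In the 10 Mb to either side of Akt1 the test called 47 of 108 genes (43.5%), 22 higher and 25 lower, against 42.1% of all genes. In AKT1 KO against control hearts 4 of the same 108 genes were called (3.70%), 2 higher and 2 lower, against 0.794% of all genes. By chromosome, the most AKT1 KO calls lay on chromosome 8, with 23 of 728 genes, against 5 of 466 on chromosome 12, which carries Akt1. An excess of calls was thus not particular to the surroundings of Akt1, and its cause was not tested. Within 10 Mb of Akt2, which is floxed in both DKO and AKT2 KO hearts, the counts were 93 of 250 (37.2%) in DKO against AKT2 KO hearts and 1 of 250 (0.40%) in AKT1 KO against control hearts. Ptprn2, a receptor-type phosphatase-like protein of secretory granules, is one of the genes near Akt1 and read 0.25, 0.44, -0.31 and 0.41 in DKO hearts, against -5.35, -5.27, -4.99 and -5.34 in AKT2 KO hearts. AKT1 KO hearts read 1.55, 1.90, 1.89 and 1.90, against -5.55, -6.65, -5.47 and -4.18 in control hearts, so both groups with floxed Akt1 were high and both without it low. The rise in DKO hearts was at least 21.7-fold (adjusted p = 6.74e-08), while a second, dimmer Ptprn2 probe differed by 0.03. Zfp386, a zinc finger protein also near Akt1, fell by 1.31 ± 0.12 in DKO against AKT2 KO hearts (adjusted p = 1.21e-06) and by 1.11 ± 0.12 in AKT1 KO against control hearts (adjusted p = 0.000233). Xrcc3, a DNA repair protein above background on 1 of 4 DKO arrays, and Ankrd9, an ankyrin repeat protein, fell near Akt1 by 1.26 ± 0.11 and 0.98 ± 0.09 and did not pass in AKT1 KO hearts (-0.05 ± 0.11 and -0.24 ± 0.09, adjusted p = 0.999 and 0.515). Near Akt2, Ech1, an enzyme of fatty acid oxidation, and Cox7a1, of cytochrome oxidase, fell by 1.54 ± 0.11 and 1.21 ± 0.14, and Wtip, a LIM protein, rose by 0.96 ± 0.07 (adjusted p = 1.71e-07, 8.81e-06 and 2.29e-07).

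The same targeting of Akt1 with Akt2 intact, AKT1 KO against control, compares hearts other than the 8 above, which enter the fit through its shared estimate of spread. It gave 109 calls (0.794% of all genes), 57 higher (0.415%) and 52 lower (0.379%), against 42.1% in DKO against AKT2 KO hearts. That count was 54 to 64 without control replicate 1, 2, 3 or 4 or without AKT1 KO replicate 4, 291 without DKO replicate 3 and 182 when fitted on these 2 groups alone. Fitted on its own 2 groups, DKO against AKT2 KO gave 4310 calls. The shared estimate pools groups of unequal spread, with a median gene SD of 0.248 in DKO, 0.114 in AKT2 KO, 0.162 in AKT1 KO and 0.090 in control hearts. The median size of a log2 difference over all genes was 0.30 in DKO against AKT2 KO hearts and 0.094 in AKT1 KO against control hearts, and the correlation of the 2 differences over the 13725 genes, which are not independent, was 0.12. Of the 109 calls 66 were also called in DKO against AKT2 KO hearts, 45 in the same direction and 21 in the opposite one. The 45 are 41.3% of the AKT1 KO calls and 0.779% of the DKO against AKT2 KO calls.

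**Figure D4:**
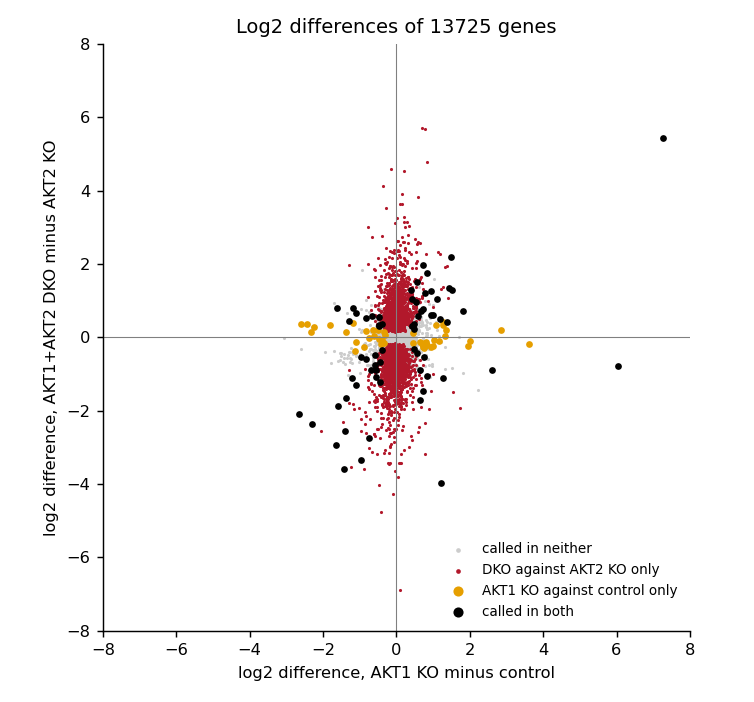
Log2 difference of DKO minus AKT2 KO hearts (vertical) against that of AKT1 KO minus control hearts (horizontal) for 13725 genes, coloured by where a gene was called. Points spread along the vertical axis, and the 66 genes called in both comparisons are shown in black.

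Genes called in the same direction by both comparisons included Nppa, whose AKT1 KO values were 8.39, 8.16, 8.46 and 8.03, against 6.94, 6.46, 6.64 and 7.11 in control hearts. That difference was 1.47 ± 0.27 (adjusted p = 0.0168), and the difference between both comparisons was 0.72 ± 0.38 with an adjusted p of 0.179. Slc38a1, a glutamine transporter, read 2.61, 2.24, 2.54 and 2.43 in DKO hearts, against 0.61, 1.13, 1.35 and 1.32 in AKT2 KO hearts. AKT1 KO hearts read 2.52, 2.75, 2.42 and 2.67, against 1.06, 1.15, 1.30 and 1.06 in control hearts. The rise was 1.35 ± 0.14 and 1.45 ± 0.14 in the 2 comparisons (adjusted p = 5.56e-06 and 0.000169), and their difference of -0.09 ± 0.20 did not pass (adjusted p = 0.774). Ankrd1 rose by 1.96 ± 0.13 in DKO against AKT2 KO hearts and by 0.72 ± 0.13 in AKT1 KO against control hearts (adjusted p = 0.0175), and the first rise was larger (adjusted p of the difference = 0.000329). Helt, Cib3, a calcium-binding protein, and Adig (adipogenin), each above background on 3 of 4 DKO arrays, fell in both comparisons, by 3.58 ± 0.29, 2.94 ± 0.24 and 2.55 ± 0.19 in DKO hearts and by 1.43 ± 0.29, 1.66 ± 0.24 and 1.39 ± 0.19 in AKT1 KO hearts (adjusted p = 5.41e-07, 5.09e-07 and 2.28e-07 in DKO and 0.0358, 0.00364 and 0.00216 in AKT1 KO hearts). Kcnj14, a potassium channel gene, read 1.29, 2.54, 2.00 and 1.02 in DKO hearts, against 3.48, 3.55, 3.63 and 3.67 in AKT2 KO hearts. It read -3.45, -2.85, -2.50 and -2.85 in AKT1 KO hearts, against -1.30, -1.16, -1.40 and -1.42 in control hearts. Both groups with floxed Akt2 therefore read higher than both groups without it. The gene thus fell in both comparisons from levels that were themselves far apart, by 1.87 ± 0.26 in DKO hearts and by 1.59 ± 0.26 in AKT1 KO hearts (adjusted p = 7.04e-05 and 0.0088).

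**Figure D5:**
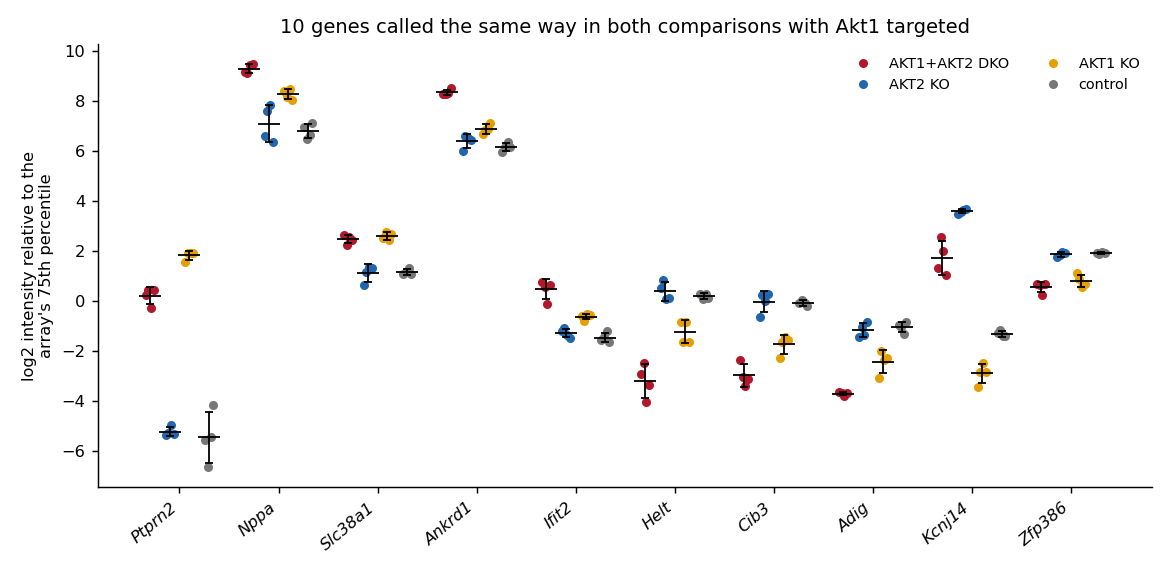
Values of 10 genes on each array of the DKO, AKT2 KO, AKT1 KO and control groups (left to right for each gene), in log2 units relative to the 75th percentile of the array, with mean and SD in black. For all 10 the call had 1 direction in both pairs of groups, DKO against AKT2 KO and AKT1 KO against control.

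The difference between the 2 comparisons, which is the departure from additivity of both deletions, was called for 3566 genes (26.0%), 2177 above (15.9%) and 1389 below (10.1%). Of the 5780 calls in DKO against AKT2 KO hearts 3390 (58.7%) were also called for this difference. For Gdf15 it was 4.90 ± 0.50 (adjusted p = 1.76e-05), and for Ccn2 3.95 ± 0.26 (adjusted p = 4.4e-07), as AKT1 KO hearts differed from control hearts by 0.77 ± 0.36 and 0.83 ± 0.19 without passing the threshold (adjusted p = 0.667 and 0.052). For Esr1 it was -4.34 ± 0.63 and for Efnb3 -4.17 ± 0.34 (adjusted p = 0.000253 and 2.91e-06). Sprr1a and Plcxd2 on the positive side, and Trim12a, Klk1b26 and the adenylyl cyclase Adcy1 on the negative side, were also called, but at least 1 of their 4 groups was above background on 0 or 1 array, so no size is given for them here. By list, 34 of 36 cytosolic ribosome, 20 of 39 collagen and matrix, 19 of 36 fatty acid oxidation, 21 of 28 immediate early and 18 of 47 respiratory chain genes were called for the departure. In AKT1 KO against control hearts the median differences of the fatty acid oxidation, collagen and cytosolic ribosome lists were -0.20, -0.028 and -0.11, against -0.87, 0.77 and 0.64 in DKO against AKT2 KO hearts. Those of the immediate early and respiratory chain lists were -0.28 and -0.10, against 0.76 and -0.44. Part of the immediate early departure thus came from lower values in AKT1 KO than in control hearts.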

How the data were processed

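RNA from the heart apex of 16 mice, 4 per group, was labelled with Cy3 (100 ng of total RNA) and hybridised to 1-colour Agilent mouse arrays, per the labels' protocols. Intensities were extracted with Feature Extraction 12.0.3.1, per the file headers, which subtracts background and detrends within each array. The authors also deposited a table of log2 values in which every probe has a median of 0 across arrays; its direction was taken from its correlation (at least 0.99997 on every array) with quantile-normalized intensities, its normalization step is not given in the sources used here, and it served as an alternative. Flags of the extraction software (other values of 0 or 1 in the deposited files) marked spots above background, saturated or outlying.

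Processed intensities were divided by the 75th percentile of each array (492.1 to 809.4), converted to log2 and averaged over the spots of a probe. Of 56605 probes 32994 (58.3%) were named through the accession in the files and the RefSeq gene table of GRCm38.p6, while the array design names mm9, so no probe coordinates were used. A probe was kept where some group had it above background on each of its 4 arrays (24396 to 30564 probes per array were above background), and the most intense kept probe stood for a gene, leaving 13725 genes. limma 3.58.1 in R 4.3.3 was fitted to all 16 arrays with 1 mean per group and no covariate, and p-values were adjusted by Benjamini-Hochberg over all genes (threshold 0.05). Errors in the text are SE of a difference unless called SD, and n is 4 per group. The number of arrays limits the precision. The fit was tested on simulated data. These gave each gene the same SD in every group, so they do not check the fit under the unequal spread of the real groups.

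Genes were named by rule: Akt1 and Akt2, the 12 largest rises and falls without overlap between groups, up to 4 called and the first 2 members of each of 42 lists, up to 6 called genes within 10 Mb of each Akt locus, up to 8 called the same way in both comparisons and 5 each way for the departure from additivity. A few of the genes so chosen are left out of the text. The comparison, its members and all gene lists were chosen with earlier results of these data known.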

Additional observations from a re-analysis of the deposited data

Results flagged for a closer look

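Values of 4 replicates were screened for a heart that lay far from the other 3 of its group, over 138 such groups of 4. By this measure 17 were marked (gap to the nearest value over the range, above Dixon's 95% critical value), where chance marks about 1 in 20. Of these, 7 came from DKO replicate 3: its score on the first principal component (78.6), Igsf1 (-1.63), and the list medians, relative to the AKT2 KO mean, of endoplasmic reticulum chaperones (-0.061), oxidative stress (0.70), amino acid carriers (0.78), cytoskeleton (0.77) and chemokines (-0.32). DKO replicate 4 stood apart for the median of the cardiomyocyte markers (-0.19) and for Crybb1 (-5.30) and Acsm5 (-5.45), both below background in DKO hearts. Among AKT2 KO hearts the values that stood apart were Gdf15 (-0.27), Nrip3 (-5.48, below background), Esr1 (5.15), Adcy1 (-1.85) and the list medians of pyruvate oxidation and TCA cycle (-0.090), ATF4 (-0.027) and gp130 cytokine genes (-0.13).

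The effect of targeting Akt1 differed with Akt2 status, tested as (DKO minus AKT2 KO) minus (AKT1 KO minus control), for 3566 genes. Among named genes measured above background on all 16 arrays it was positive for Akt2 (0.50), Gdf15 (4.90), Ccn2 (3.95), Lgals3 (3.55) and Gpx3 (2.94), and negative for Esr1 (-4.34), Efnb3 (-4.17), Mhrt (-3.51) and Igsf1 (-3.25). Where only some arrays of a group measured the gene, it was positive for Cxcr6 (3.50) and Rnase1 (3.08) and negative for Adcy1 (-3.95), Cryba4 (-3.21) and Helt (-2.14). For the following genes at least 1 group was below background on all its arrays, so the fitted values are not measured sizes: Sprr1a (4.75), Plcxd2 (4.50), Nrip3 (3.76) and Sepsecs (3.26) on the positive side, and Ptprn2 (-1.83), Trim12a (-6.98), Klk1b26 (-5.20), Crybb1 (-3.86), Mrgprh (-3.52) and Acsm5 (-2.29) on the negative side.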

How the results depend on the processing

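The count for DKO against AKT2 KO hearts (5780 of 13725 genes tested) was between 4895 and 7477 under alternative background correction, normalization, filters, probe averaging, variance priors, array weights and slide blocks. The filters changed the number of genes tested. Without the filter on dim probes 4895 of 22873 genes were called, a smaller share. With only probes above background on all 16 arrays 5392 of 12396 were called. The count was 4310 when fitted on these 2 groups alone. When 1 array was omitted it was 4887 (without AKT2 KO replicate 3) to 6514 (without DKO replicate 3). It was 1903 within slide 2 and 3792 with the replicate block on these groups alone. Same-numbered DKO and AKT2 KO arrays shared a slide and an array row and correlated at 0.027, 0.392, 0.035 and 0.278 in their deviations, and not every array correlated best with its own number; with slide and row as a block on all 16 arrays the count was 6013. For AKT1 KO against control (109) the count was 56 without the filter on dim probes, 822 with array weights, 182 with only the groups compared, 53 with the replicate block on those, 14 and 4 within slides 1 and 2, and 54 to 291 when 1 array was omitted. The departure from additivity (3566) was called for 6155 genes with array weights and 188 within slide 2. Of 210 named genes that were called, 144 kept the call under every alternative that kept their probe (31 or 32 alternatives) and 66 lost it under at least 1. Signs turned for Sepsecs without the filter (-0.27), Acta2 with the mean of probes (0.75) and Fbxo32, near 0, with array weights (0.35), within slide 1 (0.50) and with 1 array omitted (-0.20 without DKO replicate 1 to 0.31 without DKO replicate 3). The cause was not tested. Probes near background limit the largest folds, which the report gives as bounds where no array of a group measured the gene.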
